A study of Mus musculus with 12 samples.

Results

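The genes described here are the DNA damage response and repair genes of the table, meaning genes that sense, signal or mend DNA lesions. They were chosen by name: protein coding genes listed without a transcription factor family, whose symbol begins with Fanc, Brca, Xrcc, Ercc, Msh or Parp, or with Rad and a digit, or is Atm, Atr, Chek1, Chek2, Mdc1, Blm or Wrn. The rule took 59 of the 11669 genes of the table and used no measured value. RNA was sequenced in 12 mouse libraries. The labels name the cells TAMC, as a line of immune cells from marrow. Cells had been treated for 24 h with PBS (buffered saline), with NP@M, whose name holds neither D nor P, with NP-D@M, or with NP-D@MP, and 3 libraries were made for each group. The series concerns nanodrugs aimed at cyclin-dependent kinases (CDKs) and coated with a cancer cell membrane. What the abbreviations stand for is not given, and the labels state no genotype, strain, age or dose for any group. Whether the 3 libraries of a group are separate cultures or animals is not said, and p-values speak of differences among libraries, whose spread may be technical.

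DNA lesions are met by several pathways. Breaks and stalled forks are sensed by the kinases ATM and ATR, which signal through CHK2 and CHK1 and through adaptors such as MDC1. Homologous recombination rebuilds broken DNA from an intact copy with BRCA1, BRCA2 and their partners, the Fanconi anemia proteins handle crosslinks between strands, nucleotide excision repair cuts out bulky lesions, and MutS proteins recognise mismatches. PARP1 marks breaks with ADP-ribose. In other systems many long genes of this kind depend on CDK12, a kinase of the elongating RNA polymerase, to be transcribed to their ends. The name rule also takes in genes with other main roles, such as Rad21 (cohesin), Rad54l2 (a chromatin remodeler) and several PARPs that act in antiviral and interferon responses.

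Some facts of the series bear on every value. The tissue label is marrow while the extraction protocol speaks of retinas. Of 10 myeloid markers 9 were in the table, 8 of them averaging 50 FPKM or more, and of 8 retina markers only Sag was present, at no more than 0.143 FPKM in any library. FPKM, the reads of a gene per kilobase of its length, scaled by the library's size, is the unit of the values. Whole read numbers could be recovered from them, 14444950 to 17338264 per library. The deposited values imply a library size of 31.6 to 38.1 M reads without D and 7.84 to 8.87 M reads with D, so a factor that differs between the groups had been applied by a step not given in the sources used here. Scaling to the recovered read totals instead lowers the difference of NP-D@M from NP@M by 1.52 on the log2 scale at the median gene. Tested members named below as rising in that comparison are given with their value under that scaling. Among libraries without D, 2 (PBS replicate 3 and NP@M replicate 2) differed from the 4 others. The choice of genes for the table is not explained.

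Promoter sequences were in the RefSeq table (GRCm38.p6) for 42 of the 59 members. The 250 bases before the start are shown for Mdc1 and Msh6, which were lower with D, and for Parp6 and Parp3, which were higher with D in the deposited values, to set the regions before genes of opposite direction side by side. The windows are chr17:35841248-35841497 (plus strand) for Mdc1, chr17:87974800-87975049 (plus) for Msh6, chr9:59617034-59617283 (plus) for Parp6 and chr9:106476950-106477199 (minus) for Parp3. None overlaps an exon of its own or another gene in GENCODE M21. Capitals mark, on either strand, the GC box GGGCGG, the CCAAT box and the E2F core TTCCCGC, and 2 further motifs that none of the 4 holds, TGACGTCA and GAAANNGAA.
Mdc1: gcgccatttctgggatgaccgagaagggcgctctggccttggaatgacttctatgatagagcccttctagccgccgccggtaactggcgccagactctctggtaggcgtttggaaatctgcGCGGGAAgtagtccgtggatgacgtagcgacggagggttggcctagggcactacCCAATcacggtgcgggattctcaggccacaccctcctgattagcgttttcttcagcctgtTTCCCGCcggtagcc
Msh6: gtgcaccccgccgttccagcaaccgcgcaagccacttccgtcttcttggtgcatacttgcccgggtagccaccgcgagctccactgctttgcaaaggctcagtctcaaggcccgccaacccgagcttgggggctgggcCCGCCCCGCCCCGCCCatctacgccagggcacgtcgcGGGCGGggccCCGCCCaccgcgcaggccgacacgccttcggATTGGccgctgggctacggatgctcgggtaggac
Parp6: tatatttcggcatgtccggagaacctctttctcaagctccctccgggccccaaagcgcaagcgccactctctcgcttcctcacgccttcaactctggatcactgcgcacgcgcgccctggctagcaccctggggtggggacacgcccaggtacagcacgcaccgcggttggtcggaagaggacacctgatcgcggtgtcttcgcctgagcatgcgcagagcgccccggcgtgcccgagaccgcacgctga
Parp3: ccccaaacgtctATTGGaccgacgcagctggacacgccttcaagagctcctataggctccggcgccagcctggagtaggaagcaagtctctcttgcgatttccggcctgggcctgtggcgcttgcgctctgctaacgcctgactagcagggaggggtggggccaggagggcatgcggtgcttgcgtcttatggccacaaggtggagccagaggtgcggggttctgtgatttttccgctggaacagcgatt

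Mdc1 held 2 E2F cores and 1 CCAAT box, Msh6 5 overlapping or separate GC boxes and 1 CCAAT box, Parp3 1 CCAAT box and Parp6 none of the motifs. All 4 windows were rich in G and C, at 59.2% (Mdc1), 70.8% (Msh6), 65.2% (Parp6) and 61.2% (Parp3). The median was 58.8% for the members' promoters and 52.4% for all 32851 promoters of the RefSeq table. A CCAAT box lay before 23 of the 42 matched members, or 54.8%, against 37.5% of all 27025 genes with a promoter in the RefSeq table. GGGCGG was present for 50% of the matched members against 35.4%, and TTCCCGC for 21.4% against 4.38%. That background was not limited to the 11669 genes measured here. A gene with several listed starts, member or not, counts here if any of them holds the motif. Of single promoters 33.8%, 32.7% and 3.82% held these motifs. Among matched members called lower in NP-D@M than in NP@M a GC box stood before 5 of 11, and among those called higher before 4 of 7. For the CCAAT box these counts were 8 of 11 and 2 of 7, and for the E2F core 2 of 11 and 2 of 7. These are matches of letters in a window and say nothing about binding.

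With D the RNA of repair genes took a smaller part of the recovered reads, while their summed FPKM as deposited overlapped between the groups. The 59 members held 0.116%, 0.128% and 0.191% of them in PBS and 0.12%, 0.183% and 0.128% in NP@M, against 0.0207%, 0.0197% and 0.0189% in NP-D@M and 0.0211%, 0.0182% and 0.0218% in NP-D@MP. The groups with and without D did not overlap, and this share does not depend on any factor between libraries, though it does depend on the other genes of the table. As deposited, the members summed to 105 to 146 FPKM without D and to 86.8 to 119 FPKM with D. In reads, the members together held 17052 to 27805 in a library without D and 3046 to 3673 in one with D. Each member had at least 10 reads in every library without D. With D, 25 to 32 of the 59 had fewer than 10 and 6 to 10 had none. These are bulk samples, in which fewer cells of a type and less RNA per cell cannot be told apart.

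**Figure D1:**
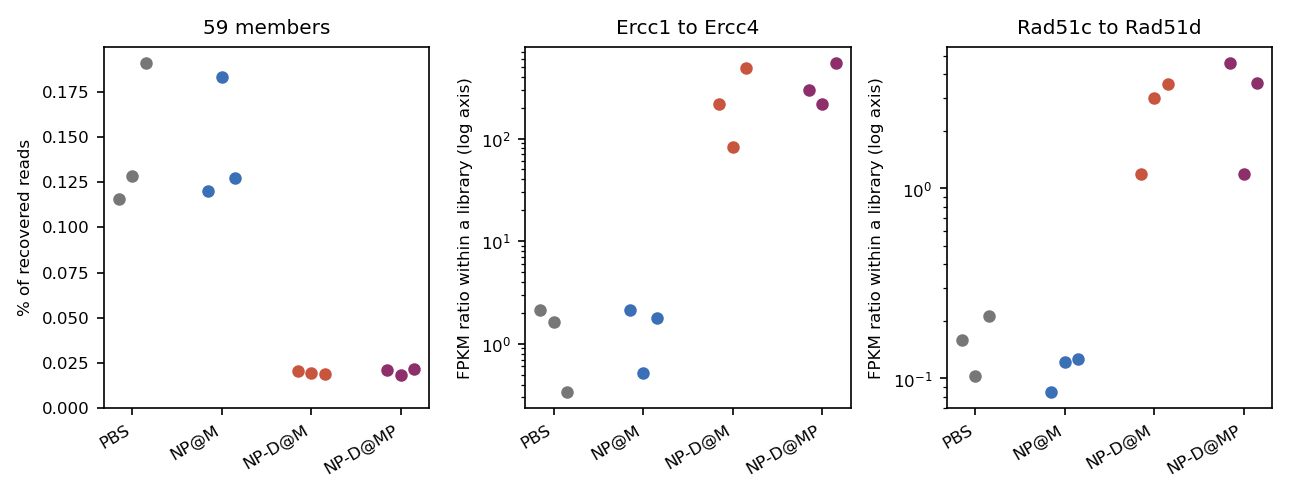
Share of recovered reads that the 59 members took (left, percent) and the ratio of FPKM of Ercc1 to Ercc4 (middle) and of Rad51c to Rad51d (right, both on log axes), 1 point per library, by treatment group. The share lies at 0.116% or more in the 6 libraries without D and at 0.0218% or less in the 6 with D, while both ratios are higher in every library with D.

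The effect of D was measured by comparing NP-D@M with NP@M. Of the 29 members with at least 1 FPKM in at least 3 libraries, which were tested, 20 fell and 8 rose (limma on log2(FPKM + 1), Benjamini-Hochberg adjusted p under 0.05 over 8615 genes). Among all genes tested 46% were called lower and 45.2% higher. The median log2 fold change was -1.06 over the tested members and 0.16 over all tested genes. A member low in 1 condition could pass the filter only through the other, so the tested members are not a sample of all 59. Falling members such as Rad54l2, Mdc1, Chek2, Fance, Ercc4, Msh6 and Parp14 passed only through libraries without D. The rising members Rad51c and Msh5 passed only through libraries with D. Scaled to the recovered read totals, 24 members were lower and 0 higher, where 61.7% of all tested genes were lower and 9.12% higher, and the medians were -2.28 and -1.47. With limma's voom on the recovered reads, 24 were lower and 0 higher, against 61.2% and 8.76% of all. The call of each of the 8 rises therefore depends on the factor between libraries.

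Rad21 is a subunit of the cohesin ring that holds sister chromatids together and helps repair. On log2(FPKM + 1) it showed the largest decrease of the tested members. That scale understates changes of low genes, and ratios of FPKM would rank the members otherwise. Rad21 is ENSMUSG00000022314 at chr15:51962240-51991747 (minus strand, GRCm38). FPKM values of Rad21 were 9.44, 11.5 and 11.5 in PBS, 10.2, 12.4 and 11.9 with NP@M, 1.18, 1.39 and 1.23 with NP-D@M, and 1.27, 0.870 and 1.02 with NP-D@MP. The groups were far apart. The log2 fold change of NP-D@M against NP@M was -2.46 ± 0.151 (SE; limma, adjusted p = 1.52e-07), and -4.07 with read totals. Rad54l2, a helicase of chromatin, at chr9:106688082-106789194 (minus), also fell. In FPKM, Rad54l2 measured 2.62, 3.16 and 5.37 in PBS, 2.66, 6.27 and 2.80 with NP@M, 0.108, 0.194 and 0.229 with NP-D@M, and 0.203, 0.0830 and 0.333 with NP-D@MP. Its 2 highest values were those of PBS replicate 3 and NP@M replicate 2, and the log2 fold change was -1.99 ± 0.273 (SE; limma, adjusted p = 4.41e-05). Rad18, a ubiquitin ligase of damage tolerance, Ercc6l and Ercc6l2 were too low to be tested. Ercc6l, a translocase of mitotic DNA, had 30 to 88 reads in libraries without D and 0 in all 6 with D. Against a floor of 3 reads per library its level was at least 4.77-fold lower in NP-D@M than in NP@M as deposited, and at least 21.4-fold with read totals. Floors cover counting error only.

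All 4 tested genes of damage signalling were called lower, beside 46% of all tested genes. With read totals all 4 were lower too, beside 61.7% of all. Without the filter 6 of the 8 members of this role were called lower, beside 46% of 11669 genes. Mdc1, the adaptor that gathers repair factors at marked breaks, lies at chr17:35841515-35859670 (plus, ENSMUSG00000061607). Mdc1 stood, in FPKM, at 1.80, 2.68 and 3.54 in PBS, 2.08, 3.56 and 2.55 with NP@M, 0.0935, 0.0344 and 0.0608 with NP-D@M, and 0.185, 0.0662 and 0.206 with NP-D@MP. That corresponds to 460 to 930 reads without D and 2 to 12 with D. The log2 fold change was -1.79 ± 0.191 (SE; limma, adjusted p = 6.14e-06). Chek2, the kinase downstream of ATM, was near 1 FPKM without D. The FPKM of Chek2 came to 0.882, 1.11 and 2.15 in PBS, 1.14, 1.82 and 1.20 with NP@M, 0.501, 0.127 and 0.300 with NP-D@M, and 0, 0.532 and 0.0424 with NP-D@MP. The groups did not overlap, with a log2 fold change of -0.87 ± 0.229 (SE; limma, adjusted p = 0.00411). With equal medians it was -0.46 (adjusted p = 0.0765) and with quantile normalization -0.15 (adjusted p = 0.654), no longer called. Rad17 and Rad9a, the loader and a subunit of the checkpoint clamp, had log2 fold changes of -0.93 (limma, adjusted p = 0.000546) and -1.06 (limma, adjusted p = 0.0181). Rad9a overlapped between the groups because NP@M replicate 2 held only 3.20 FPKM where the other 2 NP@M libraries held 7.77 and 8.0.

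The upstream kinases were too low for the filter. Atm, the kinase activated by breaks, had FPKM values of 0.270, 0.457 and 2.32 in PBS, 0.323, 1.48 and 0.278 with NP@M, 0.190, 0.173 and 0.174 with NP-D@M, and 0.199, 0.249 and 0.123 with NP-D@MP. The libraries without D lay between 0.270 and 0.457 FPKM save PBS replicate 3 and NP@M replicate 2, and every library with D lay below all of them. Fitted without the filter, its log2 fold change was -0.45 ± 0.333 (SE; limma, adjusted p = 0.216), which was not called. Atr, the kinase of stalled forks, had 80 to 390 reads per library without D and 7 to 25 with D. Its unfiltered log2 fold change of -0.16 (limma, adjusted p = 0.208) was not called either. Chek1, the kinase that ATR activates, had 23 to 79 reads without D and 1 to 6 with D, and was called lower (-0.26, limma without the filter, adjusted p = 0.0142). On log2(FPKM + 1) such low genes show small numbers even where most of their reads are gone.

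Homologous recombination genes went different ways as deposited. Of 3 tested, Rad50 (-1.14, adjusted p = 6.98e-05), part of the complex that trims break ends, and Rad51d (-1.13, adjusted p = 0.000144), a factor that helps strand exchange, fell in limma's test. Rad51c, which works in complexes with it, at chr11:87376645-87404954 (minus), rose by 0.73 ± 0.115 (SE; limma, adjusted p = 0.000119). FPKM values of Rad51c were 0.405, 0.221 and 0.339 in PBS, 0.174, 0.311 and 0.279 with NP@M, 0.924, 1.13 and 1.18 with NP-D@M, and 1.12, 0.868 and 0.986 with NP-D@MP. It passed the filter only through the libraries with D, and with read totals its difference was -0.03. The ratio of Rad51c to Rad51d within a library cancels any such factor. It was 0.0850 to 0.214 without D and 1.19 to 4.55 with D, a description only, since the pair was chosen after the values were seen. Rad51d rested on 186 to 332 reads per library without D and 8 to 25 with D.

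The best known recombination genes were low in all groups. Brca1 had FPKM values of 0.303, 0.350 and 0.886 in PBS, 0.295, 0.879 and 0.361 with NP@M, 0.136, 0 and 0.0660 with NP-D@M, and 0, 0.0288 and 0.0447 with NP-D@MP. Those values rest on 89 to 264 reads without D and 0 to 10 with D. Brca1 was called lower without the filter (-0.48 ± 0.159, SE; limma, adjusted p = 0.0154). Brca2, a mediator of strand exchange, fell from 54 to 155 reads to 0 to 7 (-0.21, limma without the filter, adjusted p = 0.0373). Xrcc2, which works with Rad51d, had 52 to 102 reads without D and 0 in all 6 libraries with D. Its level was at least 6.50-fold lower in NP-D@M than in NP@M as deposited and at least 29.2-fold with read totals. Without the filter 12 of the 15 members of this role were called lower and 1 higher, where 46% of all 11669 genes were lower and 37.2% higher.

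Among Fanconi anemia genes, Fancf (-0.86, adjusted p = 0.00032) and Fance (-1.29, adjusted p = 0.0132), both of the core complex, fell and Fancg (0.49, adjusted p = 0.0361), also of that complex, rose in limma's test. Fancg was -1.06 with read totals, a fall (adjusted p = 0.000143). Fance was uneven without D. In FPKM, Fance measured 3.09, 2.79 and 0.277 in PBS, 3.03, 0.712 and 2.66 with NP@M, 0.0362, 0.240 and 0.353 with NP-D@M, and 0.394, 0.269 and 0.398 with NP-D@MP. The 2 low libraries were again PBS replicate 3 and NP@M replicate 2. Fancd2, the protein that the core complex marks with ubiquitin, was too low for the filter, and was called higher without it (0.37, limma, adjusted p = 0.0309). Its reads were 60 to 153 without D and 24 to 59 with D, so that in reads it was below every library without D.

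In nucleotide excision repair, Ercc1 and Ercc4 encode the subunits of 1 nuclease, which cuts on the 5′ side of a lesion. Ercc1 lies at chr7:19344778-19356524 (plus, ENSMUSG00000003549). Ercc1 stood, in FPKM, at 3.37, 3.04 and 0.834 in PBS, 3.28, 1.86 and 2.95 with NP@M, 18.9, 18.9 and 16.2 with NP-D@M, and 25.4, 19.7 and 30.6 with NP-D@MP. Its log2 fold change was 2.38 ± 0.312 (SE; limma, adjusted p = 3.14e-05), and 0.53 with read totals (adjusted p = 0.242). Ercc4 went down. The FPKM of Ercc4 came to 1.58, 1.87 and 2.46 in PBS, 1.53, 3.58 and 1.67 with NP@M, 0.0860, 0.227 and 0.0335 with NP-D@M, and 0.0850, 0.0912 and 0.0567 with NP-D@MP. The log2 fold change was -1.49 ± 0.211 (SE; limma, adjusted p = 5.36e-05), and -2.49 with read totals. The ratio of Ercc1 to Ercc4 within a library was 0.339 to 2.15 without D and 83.3 to 539 with D, as the plot of shares and ratios shows. Ercc4 had 2 to 12 reads in the libraries with D, so the size of that ratio is loosely known, but the libraries with and without D did not overlap. The pair was chosen after the values were seen, and 2 further pairs so chosen also lay apart. Msh5 to Msh6 was 0.153 to 0.341 without D and 32.6 to 45.8 in the 4 libraries with D that held Msh6 reads. Parp6 to Mdc1 was 0.386 to 0.686 without D and 39.6 to 232 with D.

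More genes of excision repair were measured. The helicases of the complex that opens the DNA, Ercc2 (-1.38, adjusted p = 2.03e-05) and Ercc3 (-0.82, adjusted p = 0.00192), and Ercc6 (-1.09, adjusted p = 0.000214), which couples repair to transcription, fell in limma's test. For Ercc2, 17.8% of its exon bases lie opposite Klc3 and 24.6% opposite Gm26852, and whether counting used the strand is not stated, so reads there cannot be told apart. Ercc5, the nuclease of the 3′ side, and Ercc8 were called lower without the filter (-0.39 and -0.48; limma, adjusted p = 0.0233 and 0.00235).

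The MutS homologs also split. Msh6, which recognises single mismatches, lies at chr17:87975050-87990883 (plus). FPKM values of Msh6 were 1.77, 1.72 and 2.91 in PBS, 1.68, 2.55 and 1.89 with NP@M, 0.0816, 0.0600 and 0 with NP-D@M, and 0.0807, 0.0577 and 0 with NP-D@MP. In reads this was 253 to 392 without D and 0 to 3 with D. The log2 fold change was -1.53 ± 0.162 (SE; limma, adjusted p = 5.74e-06). Msh5, which serves crossing over in meiosis, lies on the same chromosome at 35028605 to 35046745 (minus). In FPKM, Msh5 measured 0.600, 0.475 and 0.446 in PBS, 0.573, 0.463 and 0.563 with NP@M, 3.04, 2.75 and 1.65 with NP-D@M, and 2.63, 2.35 and 3.27 with NP-D@MP. It rose by 1.16 ± 0.171 as deposited (SE; limma, adjusted p = 7.31e-05) and was 0.02 with read totals (adjusted p = 0.932). Msh5 passed the filter only through the libraries with D, and Msh6 only through those without D.

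Of the PARPs that sense breaks, both tested members rose as deposited, beside 45.2% of all tested genes called higher. With read totals 1 was lower and 0 higher, beside 61.7% and 9.12% of all. Parp1, at chr1:180568924-180601254 (plus), makes most of the ADP-ribose chains at breaks. Parp1 stood, in FPKM, at 5.38, 5.29 and 5.41 in PBS, 5.11, 4.71 and 5.25 with NP@M, 7.87, 9.06 and 9.14 with NP-D@M, and 9.36, 8.44 and 10.2 with NP-D@MP. The log2 fold change was 0.68 ± 0.139 (SE; limma, adjusted p = 0.000732) and -1.21 with read totals (adjusted p = 4.43e-06), a call in the opposite direction. Parp3, which acts in end joining, lies at chr9:106470322-106476949 (minus). The FPKM of Parp3 came to 2.0, 1.76 and 1.44 in PBS, 1.99, 1.31 and 1.76 with NP@M, 5.54, 6.45 and 5.73 with NP-D@M, and 4.67, 5.54 and 7.59 with NP-D@MP. Its log2 fold change of 1.37 ± 0.185 (SE; limma, adjusted p = 3.63e-05) became -0.27 (adjusted p = 0.21) with read totals.

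The other PARPs carry a single ADP-ribose to their targets or are little studied. Parp14, known from interferon and interleukin responses, at chr16:35832874-35871544 (minus), was the second largest decrease on log2(FPKM + 1) among the members tested. FPKM values of Parp14 were 3.18, 4.60 and 15.6 in PBS, 4.28, 9.40 and 4.65 with NP@M, 0.448, 0.384 and 0.484 with NP-D@M, and 0.516, 0.435 and 0.546 with NP-D@MP. The 6 libraries without D spanned a wide range, and all lay above those with D. The log2 fold change was -2.23 ± 0.426 (SE; limma, adjusted p = 0.000494). Parp4, the PARP of vault particles, at chr14:56575619-56659794 (plus), fell by 1.66 on the log2 scale (SE 0.381; limma, adjusted p = 0.00172). In FPKM, Parp4 measured 5.54, 6.26 and 15.4 in PBS, 5.37, 14.0 and 6.58 with NP@M, 1.35, 2.21 and 2.07 with NP-D@M, and 1.72, 1.07 and 1.87 with NP-D@MP. Again PBS replicate 3 and NP@M replicate 2 were the highest. Parp9 (-1.45), Parp10 (-1.32) and Parp12 (-1.03), further PARPs of antiviral responses, fell as well (limma, adjusted p = 0.000691, 0.000691 and 0.0018). Parp11 had a log2 fold change of -0.51 (limma, adjusted p = 0.0831), the only tested member not called. Of the 7 tested members of this role 5 were called lower as deposited and only Parp6 higher, while Parp1 and Parp3, described above, rose too. Parp6 lies at chr9:59617284-59650285 (plus). Parp6 stood, in FPKM, at 1.24, 1.13 and 1.63 in PBS, 1.21, 1.38 and 1.34 with NP@M, 6.90, 7.97 and 7.13 with NP-D@M, and 7.96, 9.42 and 8.14 with NP-D@MP. It rose by 1.85 ± 0.145 (SE; limma, adjusted p = 6.88e-07) as deposited, and had 0.25 with read totals (adjusted p = 0.116).

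**Figure D2:**
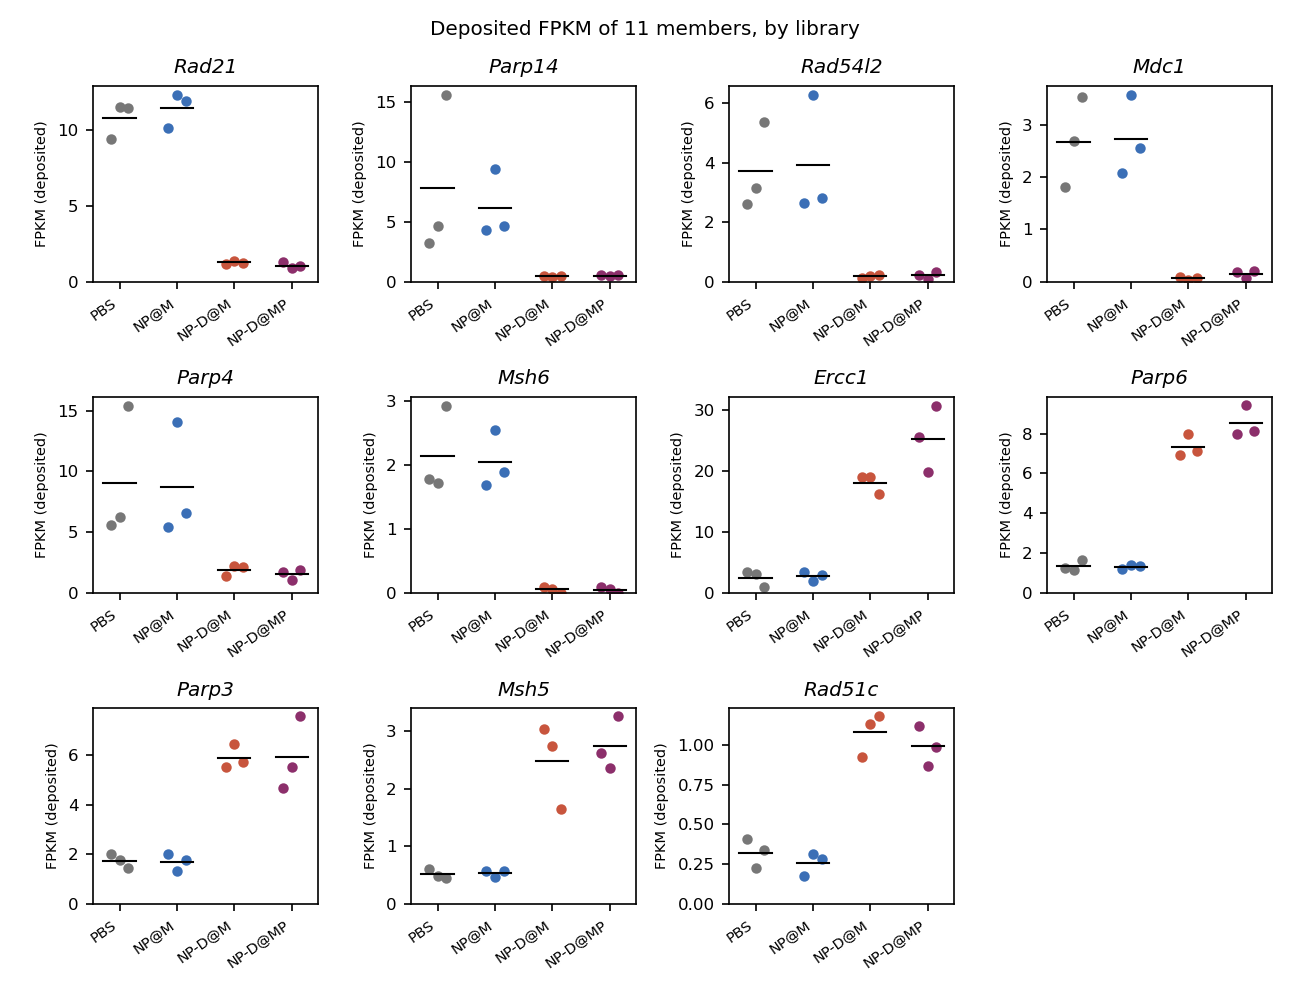
Deposited FPKM (vertical axes from 0) of 11 members in the 4 treatment groups, with 1 point per library and a bar at the group mean. Rad21, Parp14, Rad54l2, Mdc1, Parp4 and Msh6 lie lower in every library with D, and Ercc1, Parp6, Parp3, Msh5 and Rad51c lie higher as deposited, where with read totals only Ercc1 and Parp6 stay above in every library.

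All 59 members can be placed without a filter by their libraries. As deposited, 38 had all 6 libraries with D below all 6 without D, 7 had them all above and 14 overlapped, against 41.8% below and 32.3% above of all genes of the table. Among the 7 were Parp1, Parp3, Rad51c, Msh5, Ercc1 and Parp6. With read totals 53 lay below, 4 overlapped (Parp3, Rad51c and Msh5 among them) and 2 lay above (Ercc1 and Parp6), against 58.7% below and 6.05% above of all genes. In the fit without the filter 43 members were lower and 9 higher in NP-D@M than in NP@M, beside 46% and 37.2% of 11669 genes. Tested members that fell had a median span in the genome of 30.9 kb and those that rose 14.9 kb, where all tested genes had 28.1 and 12.3 kb. Across the 29 members the Spearman correlation of log2 fold change with span was -0.38, and across the 8615 tested genes -0.32, given as a description since genes share libraries.

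**Figure D3:**
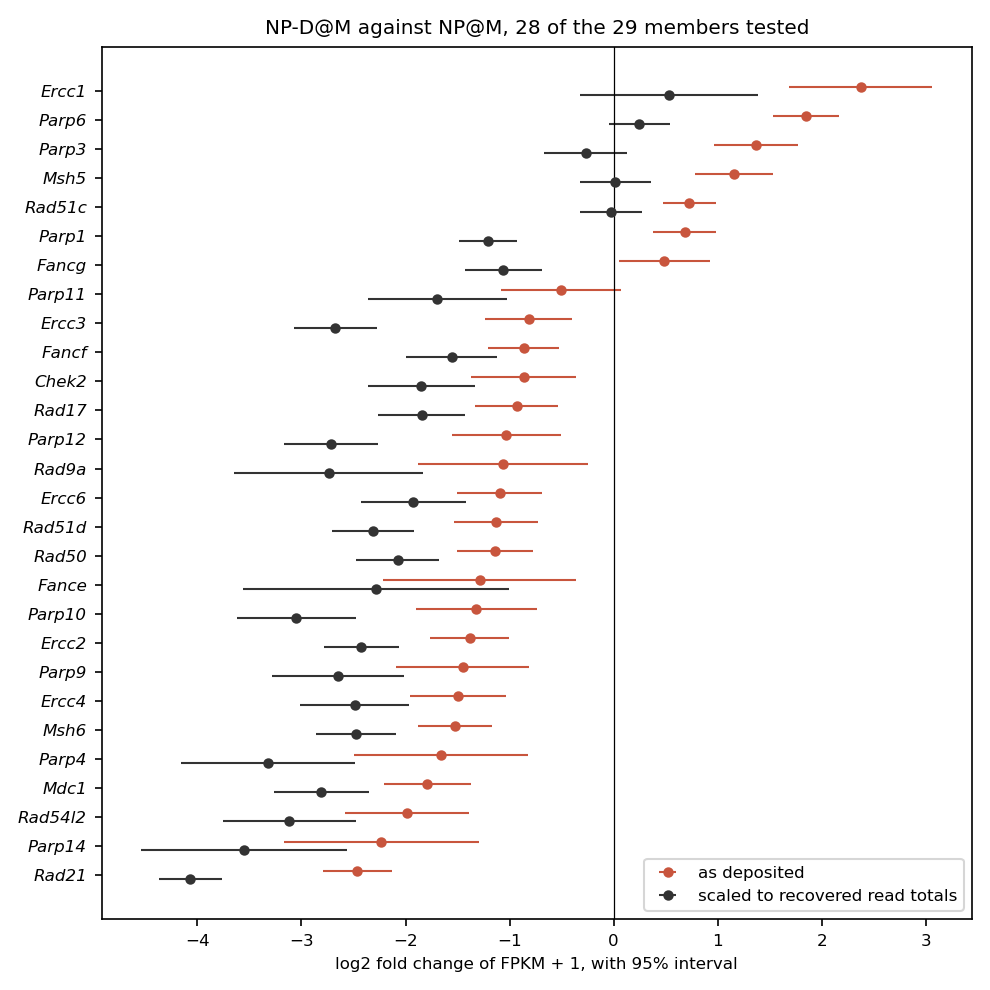
Log2 fold change of FPKM + 1 (horizontal axis) for 28 of the 29 tested members in NP-D@M against NP@M, with 95% intervals from limma, as deposited and scaled to the recovered read totals. Of the members drawn, 20 are called lower and 7 higher as deposited, and none is called higher with read totals.

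The full formulation, NP-D@MP, was compared with PBS, and these libraries are all different from those of the comparison above. Here 19 members fell and 8 rose (limma, adjusted p under 0.05), beside 45.8% and 45.7% of all tested genes. All 19 and all 8 were called in the same direction in NP-D@M against NP@M. The member called only there was Rad9a, at -0.72 here (limma, adjusted p = 0.0824). Most of all tested genes were called in each of these comparisons, and the share of all genes that agreed was not computed. Both comparisons also take their spread from the same fit of all 12 libraries. With read totals 23 were lower and 2 higher (62.4% and 9.01% of all), with voom 23 and 2 (62% and 8.67%), and without the filter 40 of 59 lower and 9 higher (45.7% and 37.9%). The 2 that stayed higher were Ercc1 and Parp6. Ercc1 had a log2 fold change of 3.02 ± 0.312 (SE; limma, adjusted p = 5.23e-06) as deposited and 1.15 (adjusted p = 0.0198) with read totals. For Parp6 the values were 2.03 ± 0.145 (SE; limma, adjusted p = 3.6e-07) and 0.35 (adjusted p = 0.0324). Rad21 (-2.52), Parp14 (-2.28), Rad54l2 (-1.93), Parp4 (-1.86), Mdc1 (-1.65) and Msh6 (-1.56) were the largest decreases on log2(FPKM + 1). Parp3 (1.33), Msh5 (1.31) and Parp1 (0.70) rose as deposited and stood at -0.37, 0.11 and -1.26 with read totals. The median over tested members was -1.06 against 0.13 over all genes.

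P was tested by comparing NP-D@MP with NP-D@M. No member was called in either direction by limma, and none had an unadjusted p under 0.05. By limma's voom the counts were also 0 and 0. Among all 8615 genes 0% were called lower and 0% higher. The largest difference was that of Ercc1, 0.45 on the log2 scale (95% interval -0.24 to 1.14; limma, unadjusted p = 0.178). Its 3 libraries with P, at 19.7 to 30.6 FPKM, lay above the 3 without, at 16.2 to 18.9, but overlapped with read totals. Intervals of the 29 members ran from -1.01 to 1.14 at their outer bounds, and 25 of them lay within 1 of 0 on the log2 scale. Smaller effects of P on these genes cannot be seen in 3 libraries a group.

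For the membrane particle without D, no repair gene passed the test. In NP@M against PBS 0 members were called in either direction, beside 0% (lower) and 0.0116% (higher) of all tested genes. Fancf had an unadjusted p of 0.0213 (limma, adjusted p = 1), with -0.42 on the log2 scale and 1.26 to 1.63 FPKM in PBS against 0.471 to 1.20 in NP@M. By voom 0 members had an unadjusted p under 0.05. Outer bounds of the 95% intervals were -1.04 and 1.04, and 27 of 29 members lay within 1 of 0. The widest interval was that of Parp14, from -1.04 to 0.83.

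**Figure D4:**
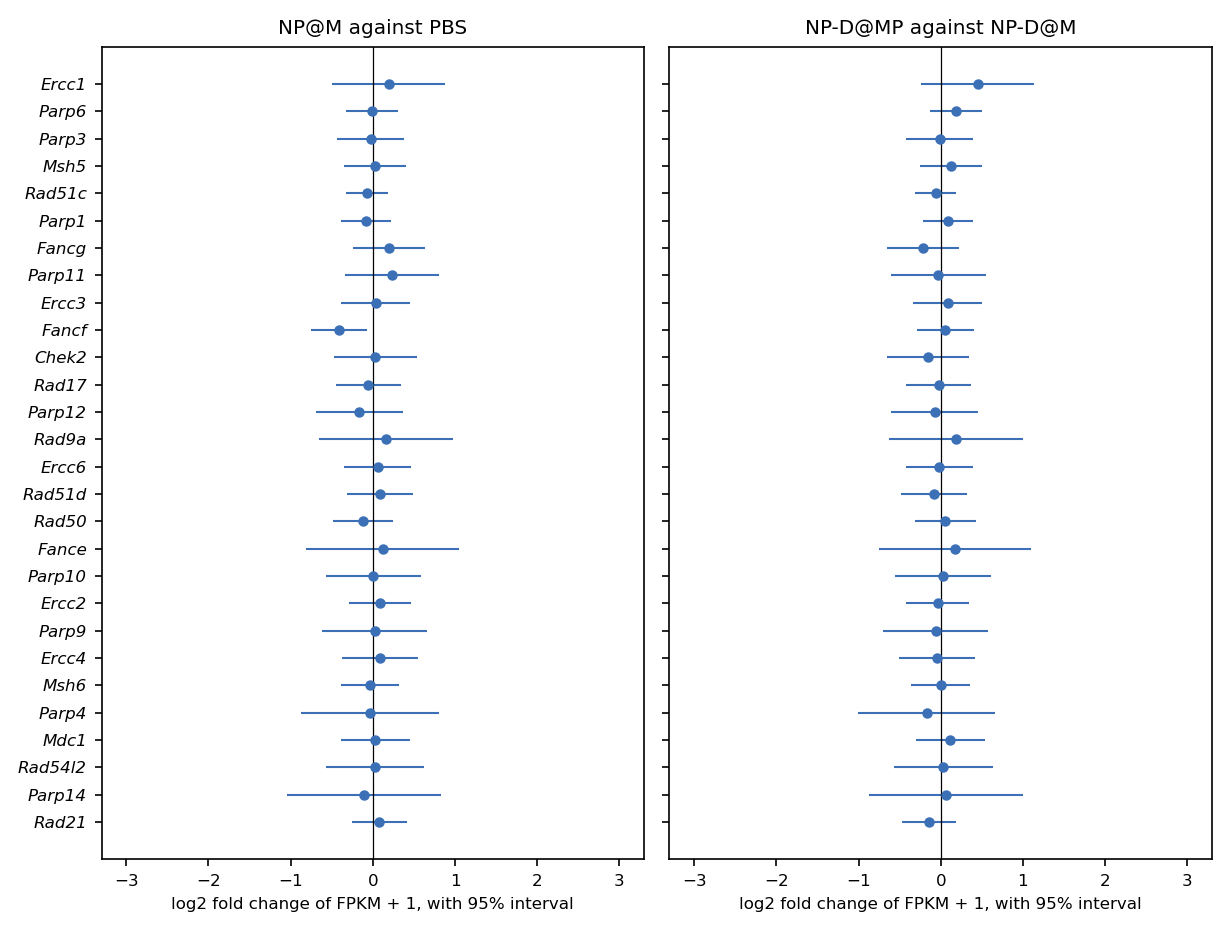
Log2 fold change of FPKM + 1 with 95% intervals from limma for 28 of the 29 tested members, for NP@M against PBS (left) and NP-D@MP against NP-D@M (right), in the order of the fold change with D. All intervals but that of Fancf in the left panel cross 0, and no member is called in either comparison.

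Within the groups without D, 2 libraries stood apart from the 4 others, among repair genes and among all genes of the table. PBS replicate 3 lay above all 4 other libraries without D for 37 members and below them for 15, and NP@M replicate 2 above for 41 and below for 13. Both were above for 34 members and below for 7. Of all 11669 genes, 42.8% lay above and 41.9% below in PBS replicate 3, and 41.4% above and 41% below in NP@M replicate 2. Both were above for 33.1% of all genes and below for 32.7%, against 57.6% and 11.9% of members. The largest excess in PBS replicate 3 was that of Atm, 6.99 times the mean of the 4, followed by Wrn, a helicase of the RecQ family, at 5.24 times. Fance stood at 0.0960 of that mean, and Ercc1 lay below it as well. Among the 59 members, longer genes tended to be the higher ones. The Spearman correlation of this ratio with genomic span was 0.677 in PBS replicate 3 and 0.692 in NP@M replicate 2, as a description. It was not computed over all genes, so it is not known to be particular to repair genes. What sets these libraries apart was not tested. Without them no count of called members in the comparisons changed by more than 1.5 times.

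**Figure D5:**
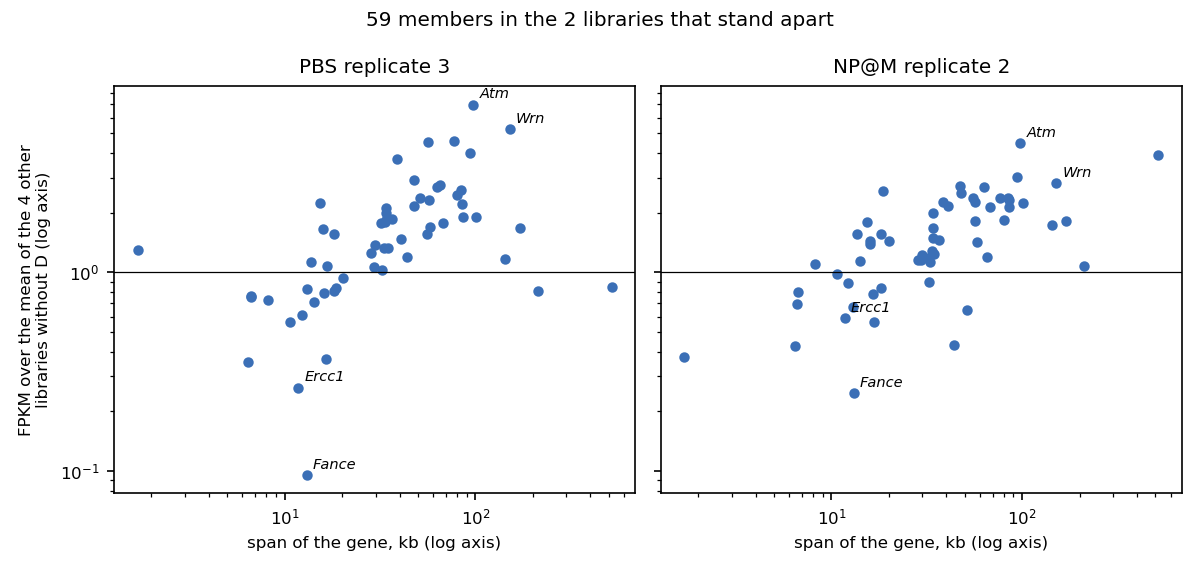
FPKM of each of the 59 members in PBS replicate 3 (left) and NP@M replicate 2 (right), divided by its mean in the 4 other libraries without D, against the span of the gene in kilobases (both axes logarithmic). Atm and Wrn, long genes, lie far above 1 and the short genes Fance and Ercc1 below it in both libraries.

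Other repair genes, listed by pathway with earlier results of these data known, were measured too. Of 109 such genes in 8 lists 87 were in the table and 53 were tested. In NP-D@M against NP@M 34 were lower and 13 higher, with a median of -0.92, beside 46% and 45.2% of all tested genes. With read totals 41 were lower and 3 higher, with a median of -1.93, beside 61.7% and 9.12% of all. Called lower were 7 of 10 further genes of recombination and end resection, such as Recql5 (-1.26) and Top3a (-1.38), and 7 of 9 of damage signalling, such as Tti1 (-1.88), Rnf168 (-1.42) and Ppm1d (-1.32). Of 10 of nucleotide excision repair 6 were called lower and 4 higher as deposited, with a median of -0.69. With read totals 6 were lower and 3 higher, with a median of -1.60. The 4 higher as deposited included Gtf2h5 (2.97), the smallest subunit of TFIIH, and Cetn2 (2.68), a partner of XPC. The others were Rpa3 (3.01), of the protein that coats single strands, and Ddb1 (1.60), of a ligase that detects damage. With read totals Gtf2h5 (1.07), Cetn2 (0.88) and Rpa3 (1.27) were still called higher, and Ddb1 stood at -0.54 (adjusted p = 0.0502). Of direct reversal, Mgmt (1.14) and Alkbh3 (0.63) rose as deposited and stood at -0.34 (not called) and -1.09 (called lower) with read totals. All of these calls are by limma at an adjusted p under 0.05. The kinases Cdk12 (-1.27) and Cdk13 (-1.73) and their cyclin Ccnk (-1.47) all fell under both scalings, with Cdk12 at 0.308 ± 0.0840 FPKM (SD, n = 3) in NP-D@M against 2.18 ± 0.425 FPKM in NP@M (limma, adjusted p = 2.38e-05).

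Lists for cells and growth moved with D too. Of 10 tested proliferation markers 8 were lower and 1 higher in NP-D@M than in NP@M. Of 8 interferon-stimulated genes 4 were lower and 3 higher, beside 46% and 45.2% of all tested genes. With read totals the counts were 10 and 0, and 7 and 1, beside 61.7% and 9.12% of all. As deposited, proliferation markers summed to 35.5 to 52.4 FPKM without D and 15.4 to 18.4 FPKM with D. Interferon-stimulated genes summed to 46.3 to 95.4 FPKM without D and 224 to 346 FPKM with D. That sum weighs abundant genes most, and only 1 of the 12 in the table averaged 50 FPKM or more. It does not describe the typical gene of the list. As deposited, the median log2 fold change of the 8 tested was -0.83 for NP-D@M relative to NP@M. For NP-D@MP relative to PBS it was -1.35, with 5 lower and 1 higher, beside 45.8% and 45.7% of all tested genes. The 9 myeloid markers in the table were all called higher as deposited, and with read totals 4 were higher and 2 lower. Their summed level was 2956 to 4227 FPKM without D and 35497 to 45513 FPKM with D. Neutrophil and granulocyte precursor markers summed to 1248 to 2150 FPKM without D and 4395 to 7277 FPKM with D. Much of that sum was Mmp8, with a mean of 635 FPKM in NP@M and 4507 FPKM in NP-D@M, while Cxcr2 went from 12.3 to 0.239 FPKM. Of 9 tested 3 were lower and 3 higher in NP-D@M than in NP@M, or 7 and 0 with read totals. In NP-D@MP against PBS 1 was lower and 5 higher, or 6 and 0 with read totals. T and NK cell markers, of which 3 of 10 were in the table, summed to 0.248 to 0.447 FPKM without D and 2.09 to 4.95 FPKM with D, and 1 of 2 tested was higher under both scalings. B cell markers, of which 2 of 6 were in the table, summed to 1.87 to 4.30 FPKM without D and 2.27 to 6.84 FPKM with D, and the 1 tested was not called as deposited and lower with read totals. Of 8 epithelial and carcinoma markers 2 were in the table, summing to 7.06 to 9.20 FPKM without D and 18.8 to 33.9 FPKM with D, and the 1 tested, Cdh1, was higher as deposited (1.71) and not called with read totals (-0.31). No erythroid marker was in the table. Ptprc, Cd3e and Cd3d were not analysed here. The part of these changes in the differences of repair genes was not tested. Fanci and Xrcc1, which the rule for named genes lists, were not analysed here.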

How the data were processed

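The deposited table gives, per the file header, gene identifiers, positions and 1 value for each of 11669 genes in 12 libraries. Its unit, FPKM, was read from the deposited values, since the product of a value and its gene's length was, in 100% of cases, a whole number of equal steps in each library (tolerance 0.05). Read numbers recovered this way came to 14444950 to 17338264 per library. The submitters' processing notes list Bowtie 0.12.2 and mm8, with no role for either, and the aligner's settings, the counting and the scaling are not given in the sources used here. Positions equal those of GENCODE M21 (GRCm38) for 57 of the 59 members, and identifiers match for 59.

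With limma 3.58.1 (R 4.3.3), 4 group means over all 12 libraries were fitted to log2(FPKM + 1), using the trend and robust options. A gene was tested if 3 or more libraries held 1 FPKM or more, which left 8615. Tests were 2-sided, and Benjamini-Hochberg adjustment ran over all genes of a comparison, with calls at an adjusted p under 0.05. The pseudocount of 1 understates changes of low genes. The code of the fit was run on simulated data with few changed genes and no factor between groups. That simulation therefore does not speak to the scaling of these data. Alternatives were scaling to recovered read totals, equal medians, quantile normalization, a pseudocount of 0.1, no filter, fits of the 6 libraries compared, leaving out libraries, and, added after seeing the data, voom on the recovered reads.

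The members, lists, comparisons and tests were chosen with earlier results of these data known. Values in every library were given for called members whose groups do not overlap and whose higher group averages 1 FPKM or more, taking the 6 largest fold changes lower and the 6 higher. Brca1, Brca2, Atm, Atr, Chek1, Chek2, Fancd2, Fanci, Parp1, Xrcc1 and Ercc1 were named where present, some by their range only, and a few genes picked by these criteria are left out of the text. Values in every library of Fance and Ercc4 are shown although the rule does not name them, chosen after their values were seen. Floors allow for counting error alone, because reads that carry no molecular identifier may be copies of the same molecule. Python 3.11.15 with pandas 2.3.3, numpy 2.4.6 and matplotlib 3.10.9 was used for tables and plots.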

Additional observations from a re-analysis of the deposited data

How the results depend on the processing

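Counts of called members kept to within 1.5 times of the reported ones under equal medians, quantile normalization, a pseudocount of 0.1, fits of the 6 libraries compared and the leaving out of both libraries that stand apart. Without the filter, 43 members were lower in NP-D@M than in NP@M and 40 in NP-D@MP than in PBS, with 59 members tested. Counts of members called higher were 0 with read totals and 0 with voom in NP-D@M against NP@M, and 2 with read totals and 2 with voom in NP-D@MP against PBS. Leaving out 1 library at a time gave 18 to 21 lower and 7 to 8 higher in NP-D@M against NP@M, 18 to 20 lower and 7 to 8 higher in NP-D@MP against PBS, and 0 in the other comparisons. The median over tested members in NP-D@M against NP@M was -2.28 with read totals, -0.66 with equal medians, -0.55 with quantile normalization, -2.05 with a pseudocount of 0.1 and -4.39 with voom.

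Reversed log2 fold changes in NP-D@M against NP@M, with read totals and then voom, were -0.27 and -0.34 for Parp3, -0.0264 and -0.0494 for Rad51c, and -1.21 and -1.38 for Parp1, and for Msh5 -0.000816 with voom alone. In NP-D@MP against PBS they were -0.37 and -0.48 for Parp3, and -1.26 and -1.44 for Parp1. These settings differ from the reported fit by construction in the factor between libraries. In NP@M against PBS, where nothing was called, Chek2 turned to -0.12 without PBS replicate 1, -0.04 without PBS replicate 2 and -0.10 without NP@M replicate 2, and Ercc1 to -0.031 without the 2 libraries that stand apart and -0.20 without PBS replicate 3. Leaving out 1 library at a time gave -0.12 to 0.25 for Chek2 and -0.20 to 0.42 for Ercc1 there. The cause was not tested. The planned edgeR test was not run, since the values are FPKM. No paired analysis was possible because the labels number the libraries in 1 run across all groups, so no number is shared between groups, and the replicate numbers used here only follow that order. Depth limits the members most with D, where 25 to 32 of 59 had fewer than 10 reads.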
